A study of Rattus norvegicus with 28 samples.

Results

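The Kruppel-like factors described here are 10 transcription factor genes of the rat aortic wall, Klf2, Klf3, Klf4, Klf5, Klf6, Klf9, Klf10, Klf13, Klf15 and Klf16. They were taken by gene symbol, as probe sets whose array annotation gives exactly 1 symbol among these names. The rule used symbols only, but the members and the gene lists below were chosen with earlier results of these data known. Their shares beside those of all genes are therefore descriptions and not tests. The 10 genes were read by 11 probe sets, since Klf9 had a second one, out of 17245 genes with such a probe set. Aortic pieces came from normal male Wistar rats, and tissue of 5 animals was combined in each pool. The low wall shear stress (WSS) region lay on the inner, lesser curvature of the arch, where flow is disturbed, and the high WSS region lay on the outer, greater curvature past the left subclavian artery, where flow is uniform. Each region gave 14 pools, each measured on 1 Affymetrix Rat Gene 1.1 ST array, and pools of the 2 regions with the same number were treated as a pair. A pool held the full thickness of the wall, so in these bulk pieces fewer cells of a type and less RNA per cell cannot be told apart.

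Kruppel-like factors bind CACCC and GC-rich DNA through a set of zinc fingers at the end of the protein. In endothelial cells, laminar flow activates the kinase ERK5 (Mapk7), which acts through MEF2 factors to raise Klf2 and Klf4, and these 2 factors favour nitric oxide synthesis and an anticoagulant surface and hold back adhesion molecules. Other members work in other layers or processes: Klf5 and Klf4 in smooth muscle phenotype, Klf15 in metabolism, Klf10 in the response to TGF-beta, Klf9 downstream of glucocorticoid and thyroid hormone. Several act as repressors, Klf3 through the corepressor CtBP and Klf9, Klf10, Klf13 and Klf16 through Sin3A.

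Of the 10 members, 9 had a mean level of at least 4 on the log2 scale and were tested, and Klf5 was not. In low WSS, 5 of the 9 were lower (Klf2, Klf3, Klf9, Klf13 and Klf16), 0 were higher and 4 did not pass (Klf4, Klf6, Klf10 and Klf15) at an adjusted p under 0.05 (limma with the pair as a block, Benjamini-Hochberg adjustment over 13383 probe sets). Among all 11750 genes tested, 2585 were lower by the same rule, which is 22.0%, and 2315 were higher, which is 19.7%. Klf3, Klf13 and Klf16 also passed a Bonferroni threshold of 3.74e-06 on the limma p, as did 458 of all genes in that direction, or 3.90%. In the methods' paired test Klf3 and Klf16 were past that value too, and Klf13, with p = 4.24e-06 over 14 pairs and lower in 13, was not (paired t-test). Klf3 and Klf16 were lower in low WSS in every one of the 14 pairs, which 568 genes were, or 4.83%. None of the 9 had all its low WSS pools below all its high WSS pools, which 59 genes had, or 0.502%. The median difference of the 9 members was -0.17 on the log2 scale, against -0.01 over all genes tested.

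**Figure D1:**
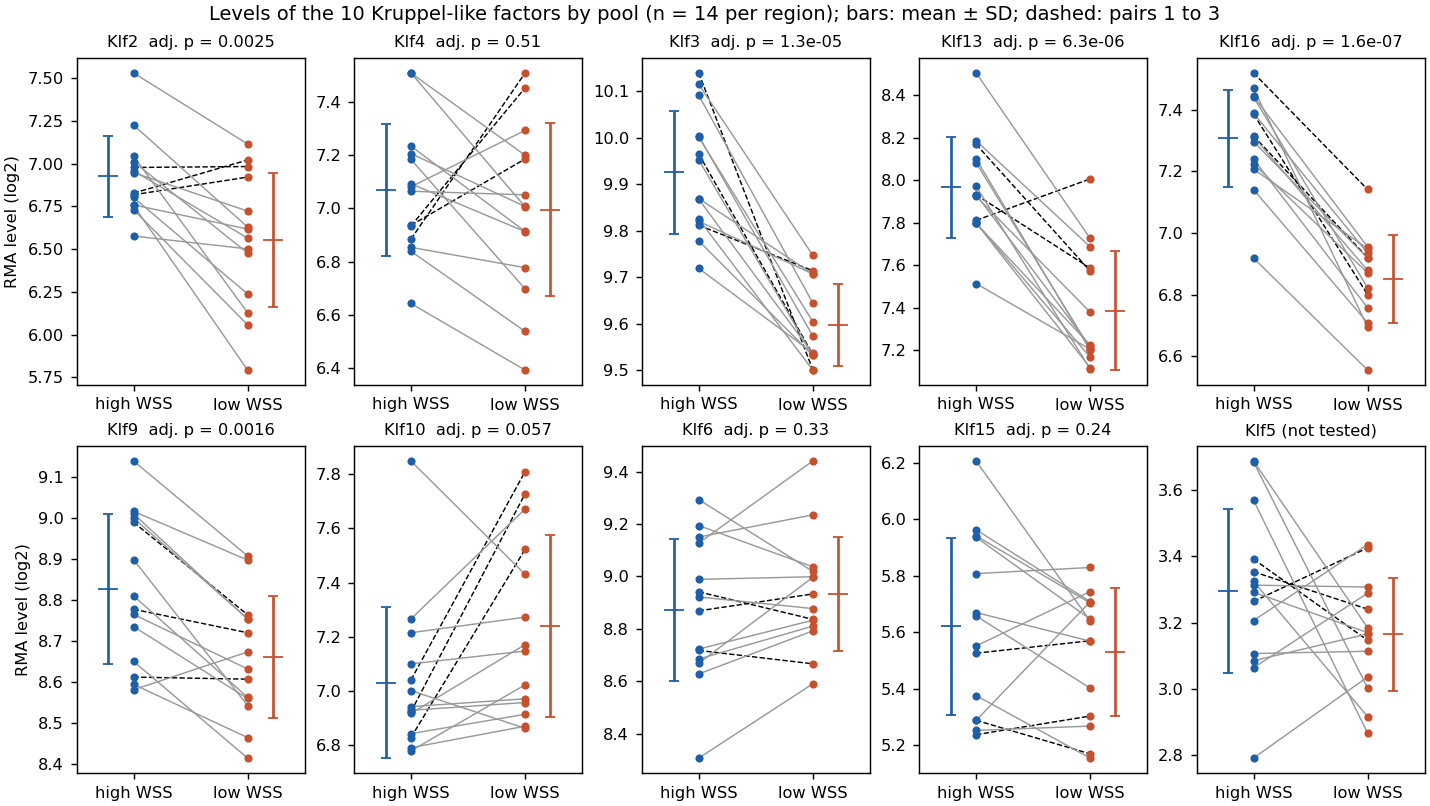
Level of each member (log2 scale, RMA) in the 14 high WSS and 14 low WSS pools, with a line for each pair, dashed for pairs 1 to 3, and the mean and SD beside the points. All lines of Klf3 and Klf16 fall, while those of Klf4, Klf6, Klf15 and Klf5 run both ways.

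Klf2, the flow-induced factor best known from endothelium, was lower in low WSS. Its level ran from 6.58 through a median of 6.89 to 7.53 in high WSS and from 5.79 through 6.59 to 7.12 in low WSS. The regions overlapped, with 7 of 14 low WSS pools below the lowest high WSS pool. The mean level was 6.93 ± 0.238 (SD, n = 14) in high WSS and 6.56 ± 0.393 (SD, n = 14) in low WSS. The difference of low minus high was -0.37 on the log2 scale (SE 0.09, 95% confidence interval -0.56 to -0.19, limma adjusted p = 0.00248), or 1.29-fold higher in high WSS, and it was negative in 11 of 14 pairs. The 3 exceptions were pairs 1, 2 and 3, with differences of 0.19, 0.10 and 0.01. The remaining 11 pairs were all negative, with a mean of -0.50 that leaving out the 3 positive pairs makes larger by construction.

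Klf4, which shares many endothelial targets with Klf2 and in smooth muscle represses contractile genes, did not pass. Its level ran from 6.64 through 7.07 to 7.51 in high WSS and from 6.39 through 7.01 to 7.51 in low WSS, almost the same span. The difference of low minus high was -0.07 (SE 0.09, 95% confidence interval -0.25 to 0.11, limma adjusted p = 0.515), and the pairs were lower in 10 and higher in 4. Pairs 1, 2 and 3 again went the other way, with differences of 0.62, 0.25 and 0.52, together with pair 14 at 0.21. In pairs 4 to 14 alone the difference was -0.22 (SE 0.06, adjusted p = 0.00806), a fit that leaves out 3 of the 4 positive pairs and is lower for that reason, so it is given as a description only. Whether the 2 flow-induced members differed from each other was tested directly, pair by pair. The pair difference of Klf2 minus that of Klf4 averaged -0.30 (SE 0.08) and was negative in 11 of 14 pairs (exact sign permutation test over 16384 patterns, two-sided, p = 0.00427). In pairs 4 to 14 it was -0.28 (SE 0.10, exact permutation p = 0.0244), negative in 8 of the 11 pairs.

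Pairs 1 to 3 stood apart in cell type markers too. In them the deviations of the 2 pools from their region means correlated at only 0.04, -0.01 and 0.002, against over 0.1 in the other 11. Their pairing rests on the labels and the methods, and whether their 2 pools came from the same animals was not tested. For 16 endothelial marker genes the mean difference of low minus high was 0.81, 0.82 and 0.83 in these pairs, while over the other 11 pairs it ran from -0.65 to 0.27. The mean of 14 adipocyte genes was higher by 1.71, 3.13 and 2.38, and it was also 2.65 higher in pair 7. That of 14 macrophage and myeloid genes was higher by 0.62, 0.66 and 0.43. Across all 14 pairs none of the 16 endothelial genes passed in either direction with limma. Nor did any before adjustment (0 genes) or in the methods' paired t-test (0 genes). In pairs 4 to 14, which leave out the 3 pairs with the highest endothelial means, 7 were lower and 0 higher. Among all genes in that fit, 23.2% were lower and 18.1% higher. The list mean ran from 5.94 through 6.43 to 7.00 in high WSS and from 6.02 through 6.23 to 6.90 in low WSS. Between regions the endothelial list mean differed by only -0.01 on average, so as a covariate it could hardly move the difference of a member. With this covariate the difference of Klf2 was -0.37 (limma adjusted p = 3.05e-04) and that of Klf4 was -0.07 (adjusted p = 0.364). With the adipocyte list mean as a covariate they were -0.41 (adjusted p = 0.00149) for Klf2 and -0.14 (adjusted p = 0.167) for Klf4. The macrophage and myeloid list was not used as a covariate, so its part in these differences was not tested. Its relation to the members over the pairs is given below.

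**Figure D2:**
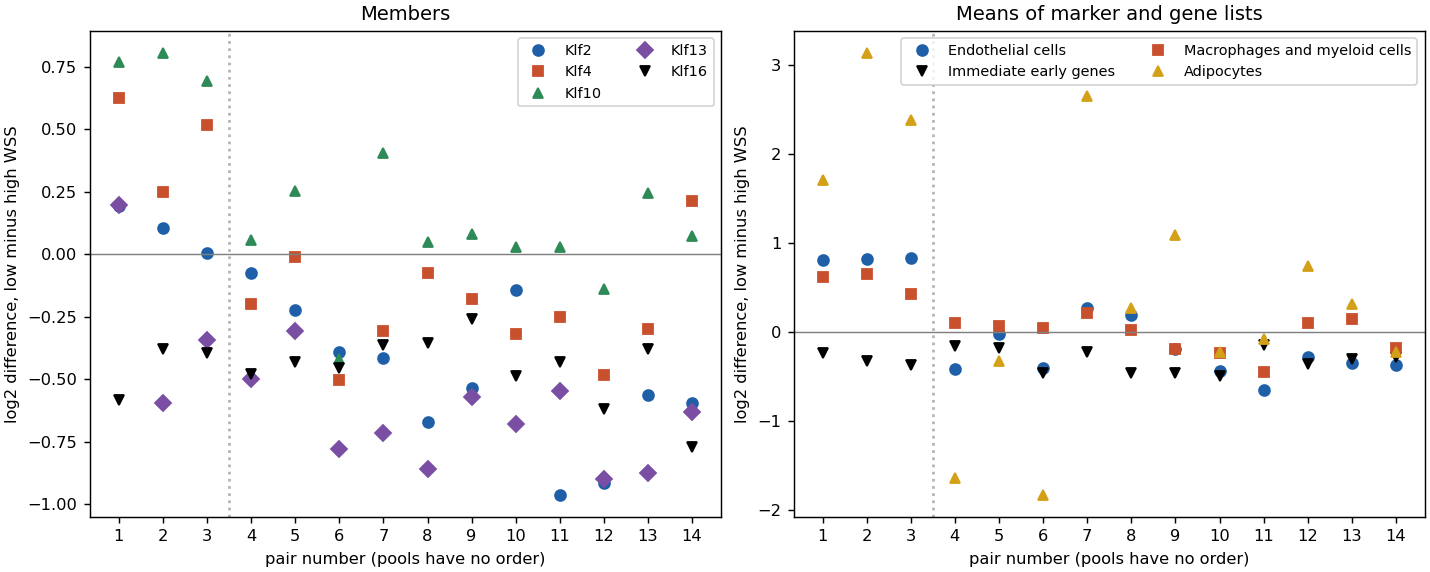
Difference of low minus high WSS (log2 scale) in each of the 14 pairs, on the left for Klf2, Klf4, Klf10, Klf13 and Klf16 and on the right for the means of the endothelial, immediate early, macrophage and adipocyte lists; the dotted line sets off pairs 1 to 3. Klf10 and Klf4 and the endothelial and macrophage means are highest in pairs 1 to 3, whereas Klf16 and the immediate early mean lie below 0 in every pair.

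Klf3, a repressor that recruits CtBP and competes with activating members at CACCC boxes, separated the regions most fully. The level of Klf3 ran from 9.72 through 9.91 to 10.14 in high WSS and from 9.50 through 9.56 to 9.75 in low WSS. All low WSS pools but 1, that is 13 of 14, lay below the lowest high WSS pool. The difference was -0.33 (SE 0.04, 95% confidence interval -0.42 to -0.24, limma adjusted p = 1.33e-05), 1.25-fold higher in high WSS, and pairs ran from -0.64 to -0.10.

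Klf16, a Sin3A-binding member that occupies GC-rich promoters, had the smallest p of the family. Levels lay from 6.92 through 7.31 to 7.52 in high WSS and from 6.56 through 6.87 to 7.14 in low WSS. The regions overlapped in few pools, with 12 of 14 high WSS pools above the highest low WSS pool. The difference was -0.46 (SE 0.04, 95% confidence interval -0.54 to -0.37, limma adjusted p = 1.64e-07), or 1.37-fold, and no pair was closer to 0 than -0.26. In pairs 1 to 3 it was -0.59, -0.38 and -0.39, within the range of the other pairs.

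Klf13, a relative of Klf9 and Klf16 first known as an activator of the chemokine gene RANTES in human T cells, had the largest difference of the 9 tested members, each taken by its brightest probe set. Its levels lay from 7.51 through 7.93 to 8.51 in high WSS and from 7.11 through 7.22 to 8.01 in low WSS, with 9 of 14 low WSS pools below the lowest high WSS pool. The difference was -0.58 (SE 0.07, 95% confidence interval -0.73 to -0.43, limma adjusted p = 6.25e-06), 1.49-fold higher in high WSS. The only pair with a positive difference was pair 1, at 0.20, and the mean of pairs 4 to 14, which leave that pair out, was -0.67.

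Klf9, a member induced by glucocorticoids and thyroid hormone, had the smallest of the 5 called differences. Its level ran from 8.58 through 8.79 to 9.14 in high WSS and from 8.41 through 8.65 to 8.91 in low WSS, so that most pools of the regions overlapped. The difference was -0.17 (SE 0.04, 95% confidence interval -0.24 to -0.09, limma adjusted p = 0.00164), negative in 13 of 14 pairs, pair 4 being the exception at 0.09. The second, dimmer probe set of the gene also fell, from a mean level of 4.62 to 4.02. Its difference was -0.59 (SE 0.11, adjusted p = 3.59e-04), larger than that of the brighter probe set, so that the 2 had the same direction and different sizes.

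**Figure D3:**
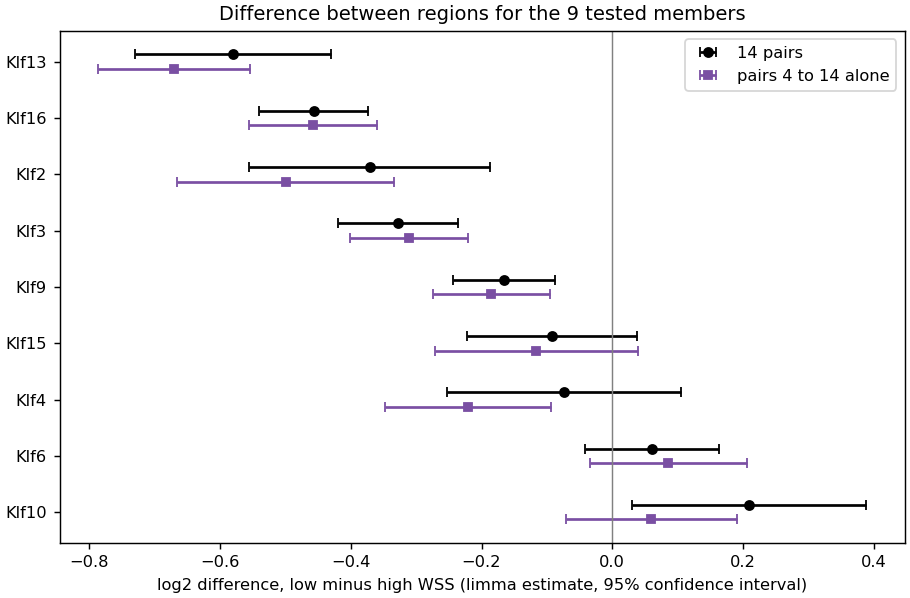
Difference of low minus high WSS for the 9 tested members (log2 scale, limma estimate with its 95% confidence interval) in all 14 pairs (black circles) and in pairs 4 to 14 alone (purple squares). The intervals of Klf13, Klf16, Klf2, Klf3 and Klf9 lie below 0 in both fits, that of Klf4 only in pairs 4 to 14, which leave out 3 of its 4 positive pairs, and that of Klf10 lies above 0 only in all 14 pairs.

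Klf10, induced early by TGF-beta, had the largest positive estimate of the tested members, but it did not pass. Its level ran from 6.78 through 6.94 to 7.85 in high WSS and from 6.86 through 7.16 to 7.81 in low WSS. The difference was 0.21 (SE 0.09, 95% confidence interval 0.03 to 0.39, limma adjusted p = 0.0571), positive in 12 of 14 pairs. Pairs 1, 2 and 3 held the 3 highest differences, 0.77, 0.80 and 0.69. Without them, in pairs 4 to 14, the difference was 0.06 (SE 0.06, limma adjusted p = 0.458), smaller by construction. With the adipocyte list mean as a covariate it was 0.10 (limma adjusted p = 0.185), and with the endothelial list mean 0.22 (adjusted p = 0.00156). The endothelial list mean hardly differed between regions on average, so it could alter the precision of that estimate and hardly its size.

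Klf6, an early injury-response factor, ran from 8.31 through 8.90 to 9.29 in high WSS and from 8.59 through 8.91 to 9.44 in low WSS. The difference was 0.06 (SE 0.05, 95% confidence interval -0.04 to 0.16, limma adjusted p = 0.333), higher in 9 pairs. Klf15, a regulator of amino acid and lipid use in muscle and fat, differed by -0.09 (SE 0.06, 95% confidence interval -0.22 to 0.04, limma adjusted p = 0.244), lower in 8 pairs. For both genes the regions overlapped in most pools, and the intervals leave room for small differences in either direction. Klf5, an activator of smooth muscle growth genes, had a mean level of 3.30 in high WSS and 3.16 in low WSS, under the minimum of 4. Fitted without that minimum it differed by -0.13 (SE 0.08, limma adjusted p = 0.233), lower in 8 pairs and higher in 6.

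Of the other family members on the array, 5 were tested, and 2 (40%) were lower and 0 higher, against 22.0% and 19.7% of all genes. Klf12, a CtBP-binding repressor like Klf3, differed by -0.23 (SE 0.04, limma adjusted p = 4.22e-04), lower in all 14 pairs. Klf7, a factor of neuron and fat cell development, differed by -0.37 (SE 0.07, adjusted p = 6.43e-04), lower in 13. Klf1, Klf11 and Klf14 did not pass, Klf17 was under the minimum level, and Klf8 and Klf18 were not analysed here. Sorted by the corepressor that the protein is known to bind, a grouping made after the values were seen, 2 of 2 tested CtBP-binding members, 3 of 6 Sin3A-binding members and 2 of 5 activators were lower. Klf15 was left out of this grouping, and groups so small cannot be told apart from the 22.0% of all genes. Over all 14 tested Klf genes, 7 were lower and 0 higher, against 22.0% and 19.7% of all genes. Of the 14, 12 had an estimate below 0, where the median over all genes tested was -0.01. In the related Sp family 1 of 6 was lower and 1 higher, or 16.7% each, near the shares of all genes. Sp2 differed by -0.65 (SE 0.06, adjusted p = 2.03e-07) and Sp1, the general GC-box activator, by 0.22 (SE 0.04, adjusted p = 4.85e-04).

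Annotated promoter sequences of 6 members were in the RefSeq table used here (build GRCr8), and those of Klf2, Klf10, Klf13 and Klf16 were not. They are shown for Klf3 and Klf9, which were lower, beside Klf4 and Klf6, which were not called, as the 250 bases before the annotated start of each gene, 5′ to 3′ on the strand of the gene. The Klf3 window is chr14:43850827-43851076 (minus strand), that of Klf9 chr1:230126396-230126645 (plus strand), that of Klf4 chr5:75078593-75078842 (minus strand) and that of Klf6 chr17:69458479-69458728 (minus strand). Capitals mark CACCC, the box that Kruppel-like factors bind, or GGGTG, the same box on the other strand.
Klf3: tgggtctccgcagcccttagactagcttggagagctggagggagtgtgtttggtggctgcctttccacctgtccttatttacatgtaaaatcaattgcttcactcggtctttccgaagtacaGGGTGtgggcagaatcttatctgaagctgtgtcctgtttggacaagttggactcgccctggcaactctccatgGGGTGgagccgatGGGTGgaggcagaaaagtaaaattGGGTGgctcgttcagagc
Klf9: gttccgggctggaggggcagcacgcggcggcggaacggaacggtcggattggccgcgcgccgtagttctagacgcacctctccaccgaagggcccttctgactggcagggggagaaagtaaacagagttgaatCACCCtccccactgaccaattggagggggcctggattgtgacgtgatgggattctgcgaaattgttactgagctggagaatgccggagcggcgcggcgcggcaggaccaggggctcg
Klf4: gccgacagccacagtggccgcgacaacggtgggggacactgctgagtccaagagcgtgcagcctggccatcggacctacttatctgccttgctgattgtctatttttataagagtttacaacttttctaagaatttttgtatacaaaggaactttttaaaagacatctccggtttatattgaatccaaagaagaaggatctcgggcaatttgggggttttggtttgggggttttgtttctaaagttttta
Klf6: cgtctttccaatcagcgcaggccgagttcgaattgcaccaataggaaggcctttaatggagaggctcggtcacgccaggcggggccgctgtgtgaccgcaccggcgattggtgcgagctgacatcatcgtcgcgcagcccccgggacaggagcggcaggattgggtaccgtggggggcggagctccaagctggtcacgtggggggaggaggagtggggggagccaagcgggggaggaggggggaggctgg
The box occurred 4 times in the Klf3 window, each time as GGGTG and the nearest 13 bases before the start, once in that of Klf9, and 0 times in those of Klf4 and Klf6. Of the others, Klf5 held 2 and Klf15 held 1. Of 33469 rat promoter windows of the same length, 49.2% held at least 1. The GC box GGGCGG, read on both strands, was found once in the Klf6 window and in none of the other 5, against 30.5% of all windows, and no CACCC match overlapped it. The CCAAT box, read on both strands, occurred 4 times in the Klf6 window, 3 times each in those of Klf9 and Klf5, once each in those of Klf3 and Klf15 and 0 times in that of Klf4, against 34.0% of all windows with at least 1. A match is a run of letters and not a measured site. Each window rests on the annotated start alone, and whether transcription begins there in this tissue was not tested. This limits the Klf4 counts above all, since its window had the lowest share of G and C of the 6, 43.2%.

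Of 16 tested genes of the ERK5 and MEF2 route upstream of Klf2 and Klf4, 4 (25.0%) were lower and 2 (12.5%) higher, shares near the 22.0% and 19.7% of all genes. Mef2d, one of the MEF2 factors, was lower in every pair, by -0.48 (SE 0.05, limma adjusted p = 3.28e-07). Mapk7, which encodes ERK5 itself, differed by -0.24 (SE 0.05, adjusted p = 0.00155), and the class IIa histone deacetylases Hdac7 and Hdac5, which restrain MEF2, by -0.24 and -0.14. The 2 higher genes were those of the catalytic subunits of the energy-sensing kinase AMPK, Prkaa1 by 0.20 and Prkaa2 by 0.11. The Prkaa2 probe set had a mean level of 13.2, near the highest value on any array, 13.6, so its difference was read at the top of the scale. Of 17 cofactors and ubiquitin ligases of Klf proteins 6 (35.3%) were lower and 2 (11.8%) higher, and the lower count was 3 without pair 2, 3 or 7. Hdac1, the deacetylase of the Sin3A complex, was higher in all 14 pairs, by 0.48 (SE 0.04, adjusted p = 1.78e-07), and Btrc, a ubiquitin ligase subunit, by 0.13. The acetyltransferases Crebbp and Ep300, coactivators of Klf factors, differed by -0.18 and -0.17, and Usp10, a deubiquitinase, by -0.29.

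**Figure D4:**
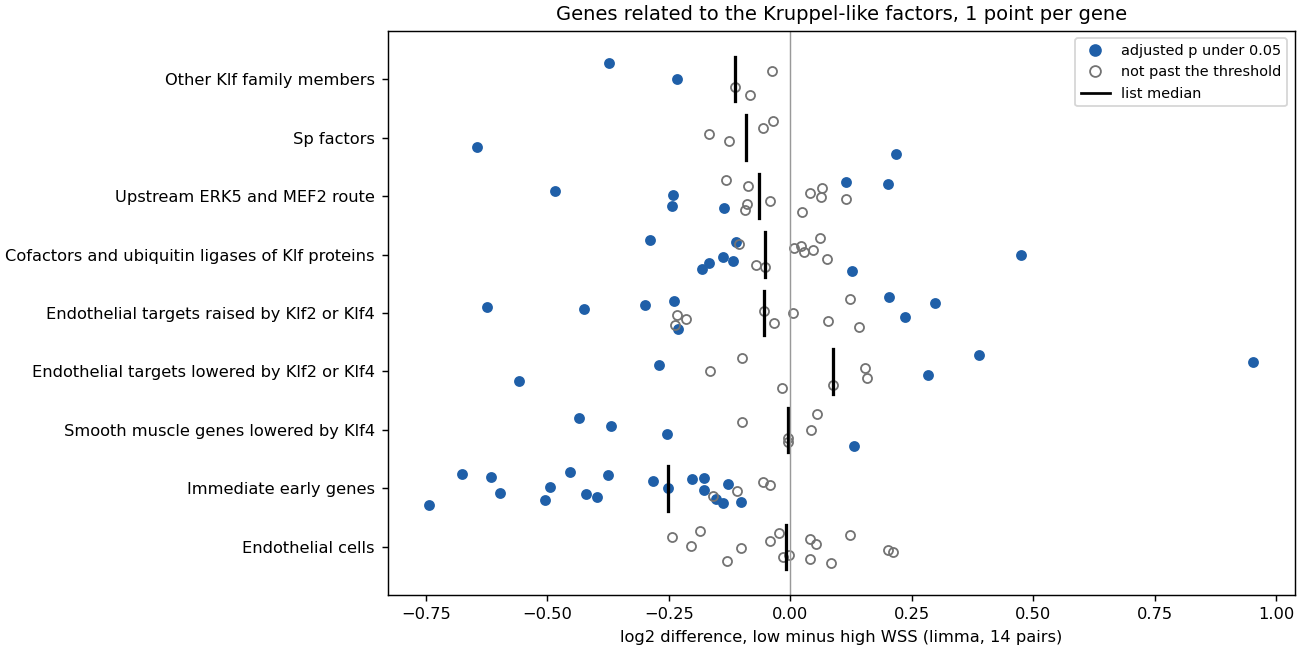
Difference of low minus high WSS (log2 scale, limma estimate over 14 pairs) of each tested gene in 9 lists related to the Kruppel-like factors, filled where the adjusted p was under 0.05 and open where not; black bars are list medians. The tested immediate early genes all lie below 0, with a median of -0.25, whereas the lists of Klf2 and Klf4 targets spread to both sides.

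Of 17 tested genes that Klf2 and Klf4 are known to raise in endothelial cells, 5 (29.4%) were lower, 3 (17.6%) were higher and 9 did not pass. The median difference was -0.05. These shares are near the 22.0% and 19.7% of all genes, and the lower count was 3 in the methods' t-test and 3 without pair 6, 9 or 13. The lower ones with the smallest p were Ptgds and Ptgis, the prostaglandin D and prostacyclin synthases, at -0.62 (SE 0.10) and -0.30 (SE 0.05), then Sema3f at -0.24 and Adm at -0.23. Sdc4, a heparan sulfate proteoglycan of the cell surface, was higher by 0.30 (SE 0.04, limma adjusted p = 7.77e-06), Nfe2l2, the antioxidant regulator Nrf2, by 0.24, and Thbd, the anticoagulant thrombomodulin, by 0.20. Of 11 tested genes that the factors hold down, 3 (27.3%) were higher and 2 (18.2%) lower, with a median of 0.09. Selp, the leucocyte adhesion molecule P-selectin, was higher in all 14 pairs, by 0.95 (SE 0.09, adjusted p = 2.31e-07), Vcam1 by 0.39 (SE 0.12) in 9 pairs and Edn1, the vasoconstrictor endothelin, by 0.28. In the same list the chemokine gene Ccl2 was lower, by -0.56 (SE 0.12, adjusted p = 9.17e-04), and so was the oxidase gene Nox4, by -0.27. The pools held the full thickness of the wall, and mean levels in the 2 lists ran from 4.01 for Tnf to 12.5 for Cav1. Pi16 is also on the fibroblast list. Which cell type gave each difference was not tested.

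Of 9 tested smooth muscle genes that Klf4 represses, 3 (33.3%) were lower and 1 (11.1%) higher, against 22.0% and 19.7% of all genes. Srf and Myocd, the serum response factor and its coactivator myocardin, differed by -0.43 (SE 0.04, limma adjusted p = 5.14e-07) and -0.37 (SE 0.05, adjusted p = 2.09e-05), Lmod1 by -0.25 and the actin gene Actg2 by 0.13. Of 12 wall genes under Klf5 or Klf6, 25.0% were called in each direction, 3 higher, Myh10, Tgfbr1 and Plau at 0.38, 0.26 and 0.23, and 3 lower, Egr1, Pdgfa and Ccnd1 at -0.50, -0.17 and -0.19. Myh10 is the embryonic non-muscle myosin that marks dedifferentiated smooth muscle. Of 10 tested genes listed under Klf15, in part genes of muscle and fat metabolism, 5 (50%) were lower and 2 (20%) higher. All genes gave 22.0% and 19.7%. Alpl and Ccn2 among the lower and Hand2 among the higher are not metabolism genes, so the counts do not describe metabolism alone. The lower ones included Alpl, an alkaline phosphatase, at -1.38, and Prodh and Acsl6, which act on proline and fatty acids, at -0.34 each. One of the 2 higher genes was Hand2, a transcription factor of heart and arch development, at 2.02 (SE 0.06), the other the glucose transporter gene Slc2a4 at 0.24.

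Klf9 and Klf15 share a hormone input with a list of glucocorticoid-induced genes, which also holds the gene of the receptor. Of its 13 tested genes 4 (30.8%) were lower and 3 (23.1%) higher, against 22.0% and 19.7% of all genes. Per1, a clock gene, fell in all 14 pairs, by 0.34 on the log2 scale. Nr3c1, the glucocorticoid receptor itself, is counted among the 3 higher, by 0.29. Of 12 TGF-beta early response genes, listed beside Klf10, 2 (16.7%) were higher and 1 (8.33%) lower. Id1 and Skil were higher by 0.52 and 0.18, and Pmepa1, a feedback inhibitor of TGF-beta signaling, was lower in every pair, by -0.50 (SE 0.04, limma adjusted p = 6.37e-08).

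Several members, Klf2, Klf4, Klf6 and Klf10 among them, are induced soon after a cell is stimulated, as are the immediate early genes, which are transcribed without new protein synthesis. Of 23 tested immediate early genes 19 were lower in low WSS and 0 higher, a share of 82.6% against 22.0% of all genes, with a median of -0.25. This list was written with earlier results of these data known, so the share is a description and not a test. The list mean was lower in all 14 pairs, by 0.14 at the least. The 5 past the Bonferroni threshold were Atf3, Nr4a3, Nr4a1, Ier3 and Zfp36, at -0.74, -0.68, -0.62, -0.49 and -0.45. With no replicate block, 10 of the 23 were lower, and in pairs 4 to 14 alone 16 were, against 23.2% of all genes there. The immediate early list was not used as a covariate, so its part in the differences of the members was not tested. Its relation to them over the pairs is given below. Among the tested genes, Egr1, Dusp1, Junb, Tek, Col1a1, Pi16 and several smooth muscle genes stand in more than 1 list.

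The pair differences of the members were set against each other in 36 relations. Over all 14 pairs 2 passed an adjusted p of 0.05 (permutation test of Pearson's r), Klf4 with Klf10 and Klf4 with Klf13. With Spearman's rho 0 passed (smallest adjusted p = 0.0916), and in pairs 4 to 14 alone 0 passed. Against the means of the 5 cell type lists and the immediate early list, 54 relations in all, 7 passed over 14 pairs by Pearson's r. Of these 4 involved Klf10, with the endothelial, adipocyte, fibroblast and macrophage lists. Klf4 had 2, with the endothelial and fibroblast lists, and Klf2 had 1, with the macrophage list. The immediate early list was not among them. With Spearman's rho 0 of the 54 passed (smallest adjusted p = 0.0616, permutation test), and by Pearson's r 0 passed in pairs 4 to 14. Since pairs 1 to 3 lay apart from the rest, no pooled coefficient is given for these relations. Among 11749 other genes, those whose pair differences followed Klf2 most closely were Ass1, which makes the precursor of arginine, with r = 0.89 over 14 pairs and 0.86 over pairs 4 to 14, then Elof1, Tmem63c, Nt5dc2 and C3h15orf48, with r of 0.89 to 0.85 over 14 pairs. For Klf4 they were Ifitm2, with r = 0.94 over 14 pairs and 0.83 over pairs 4 to 14, then Oaf, Sh3bp5, Flrt3 and Igfbp6, with r of 0.92 to 0.91. For Klf16 they were Klhl36, with r = 0.79, then Mgat5b, Pkn3, Klc3 and Ncmap, with r of 0.73 to 0.70. These values describe likeness over pairs that share arrays and cell content. The genes were picked as the highest of 11749, and no chance level is given. In pairs 4 to 14 r was 0.74 to 0.86 for Klf2, 0.74 to 0.83 for Klf4 and 0.70 to 0.85 for Klf16. Over the levels of the 28 pools it was 0.01 to 0.57, 0.52 to 0.71 and -0.02 to 0.25 in the same order. Nt5dc2, with the 0.01, was higher in low WSS, by 0.20.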

How the data were processed

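RNA from 28 pools of rat aortic wall was hybridised by the authors to Rat Gene 1.1 ST arrays. The deposited values are log2 levels, which the authors made with RMA (background correction, quantile normalization, summary per probe set). Quantile normalization gives arrays a common distribution, so a change in total mRNA cannot be seen. Array medians were 4.88 to 5.00 in high WSS and 4.85 to 4.92 in low WSS. Arrays correlated at 0.979 to 0.996, so none were copies. Arrays have no read depth, and their number limits the precision. The number of animals behind each pool and the pairing by pool number come from the labels and the methods. Deviations of same-numbered pools from their region means correlated at -0.01 to 0.48, over 0.1 in 11 of 14 pairs and not in pairs 1 to 3.

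Of 29214 probe sets, 18644 had 1 symbol in the platform annotation, 962 several and 9608 none. Probe sets without a symbol or with a mean under 4 were left out, and 13383 remained, for 11750 genes. A gene was represented by its probe set with the highest mean. Low was compared with high WSS with limma 3.58.1 in R 4.3.3, pair as block, after a check on simulated data. Relations used 100000 permutations. Promoters are from RefSeq GRCr8, while the array annotation is on another build, so no probe coordinates are given.

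Named genes were all members, list genes past Bonferroni, up to 4 more per direction by smallest adjusted p, and the 5 genes most alike Klf2, Klf4 and the member with the smallest p. Members and lists were chosen with earlier results of these data known. Alternatives were the methods' paired t-test, no block, trend and robust estimation, array weights, other filters and scalings, covariates for smooth muscle, fat and endothelium, pairs 4 to 14 alone, and each pair left out.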

Additional observations from a re-analysis of the deposited data

How the results depend on the processing

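The 5 lower members, Klf2, Klf3, Klf9, Klf13 and Klf16, passed in each of the 28 alternatives, with adjusted p of at most 0.0231, 0.00301, 0.0362, 0.00162 and 2.72e-05 (limma or the methods' t-test). The count of lower members was 5 in 27 alternatives and 6 in pairs 4 to 14 alone, where Klf4 passed after 3 of its 4 positive pairs were left out. The count of higher members, 0, became 1, in each case Klf10, with a mean level of at least 6, with arrays centred on their medians, with arrays quantile normalized again and with the endothelial list mean as a covariate, and it ran from 0 to 1 when each pair was left out, being 1 without replicate 6 or 12. The methods' t-test gave 5 lower and 0 higher. No difference of a member changed direction.

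The fit with no replicate block, the unpaired analysis, gave 5 lower and 0 higher members as well, with Klf2 at an adjusted p of 0.0124 and Klf9 at 0.0362, and changed no call of a member. Of the relations between members, 2 over 14 pairs, 0 passed in pairs 4 to 14 alone, and 1 of the 2 kept an r over 0.5 without the 2 farthest pairs. Of those with cell type lists, 7 over 14 pairs, 0 passed in pairs 4 to 14. The difference between Klf2 and Klf4 ran from -0.33 to -0.26 as each pair was left out (highest exact permutation p = 0.00854).

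Centring each array on its median turned the split of all genes from 22.0% lower and 19.7% higher into 16.7% lower and 26.9% higher, with the same 5 members lower, and Tagln and Cnn1 as covariates left 1707 genes lower and 1291 higher. Signal over background limits Klf5 and the second Klf9 probe set. The cause of these changes was not tested.

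Counts of the gene lists moved more. Over the 28 alternatives the lower count ran from 10 to 20 of 23 immediate early genes. It ran from 3 to 9 of 17 genes that Klf2 and Klf4 raise and from 3 to 7 of 17 cofactors. For the ERK5 and MEF2 route it was 3 to 5 of 16 genes, and for the glucocorticoid list 1 to 4 of 13. For genes under Klf5 or Klf6 it was 1 to 4 of 12, and for Sp factors 1 to 3 of 6. The higher count ran from 1 to 5 of 11 genes that Klf2 and Klf4 hold down, and from 1 to 5 of 12 TGF-beta early response genes, where it was 1 without replicate 9.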
